A study of Mus musculus with 4 samples.

Results

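The *Cyp4a* cluster of mouse chromosome 4 was followed at the nuclear periphery of primary hepatocytes, using its 7 annotated genes *Cyp4a12a*, *Cyp4a12b*, *Cyp4a14*, *Cyp4a10*, *Cyp4a31*, *Cyp4a32* and *Cyp4b1*. The genes were chosen by symbol in the mm9 annotation, and all 7 were found among its 22367 protein-coding genes. DamID had been run on hepatocytes from *Tm7sf2*+/+ (WT) and *Tm7sf2*-/- (KO) mice on a C57BL/6 background, aged 12 to 16 weeks. The cells were kept in medium with dexamethasone, insulin and EGF, and lentiviral vectors encoding either Dam-LaminB1 or unfused Dam were added for 24 h. The fusion methylates GATC sites in DNA that comes close to the nuclear envelope (NE), and Dam alone serves as the control for accessibility. There were 4 libraries, 1 of each construct per genotype, and each held pooled DNA of 4 mice. The data used are the lamina-associated domains (LADs) called in each genotype and their differential regions (DRs), the stretches of at least 10 kb that lie in the LADs of 1 genotype only. The lists give borders without a signal or a read number, so the depth behind a border is unknown here, and the study describes fewer usable reads for KO than for WT. With 1 library pair per genotype no difference between the genotypes has a replicate check or a p-value. Only part of the hepatocytes took up the virus, and in such a pool a LAD lost in some cells and a contact weakened in all cells cannot be told apart. No expression was measured in these libraries, so the hepatocyte label was not checked against markers.

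Enzymes of the Cyp4a family are cytochrome P450s of the endoplasmic reticulum that add a hydroxyl group to the far (omega) end of fatty acids. This opens an alternative route of fatty acid breakdown that leads through dicarboxylic acids to the peroxisome. In liver, *Cyp4a10* and *Cyp4a14* are textbook targets of PPARα, the nuclear receptor that senses fatty acids during fasting, whereas *Cyp4a12a* is known for higher expression in males and for making a vasoactive hydroxy derivative of arachidonic acid. *Cyp4b1*, at the edge of the cluster, is known for its action on foreign compounds, mainly in lung. The lamina binds mostly silent chromatin, and a gene can lie wholly in a LAD, across its border or outside it.

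The LAD borders within the genes carry the comparison and are shown first, 30 bases on each side, on the plus strand of NCBIM37 (the same assembly as mm9). Capitals mark the GATC site at which the deposited border lies. All 20 borders looked up here (the shared one counted in each list), from 10 kb before the cluster to 60 kb after it, lay at such a site, against 98.9% of all WT borders and 99.5% of all KO borders.
Shared border before *Cyp4a12a*, start of a WT and of a KO LAD, chr4:114966596-114966655: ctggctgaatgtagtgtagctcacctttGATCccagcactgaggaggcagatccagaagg
*Cyp4a12b* intron 4, start of a KO LAD, chr4:115091309-115091368: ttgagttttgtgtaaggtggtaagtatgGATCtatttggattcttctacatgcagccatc
*Cyp4a10* intron 1, start of a WT LAD, chr4:115191970-115192029: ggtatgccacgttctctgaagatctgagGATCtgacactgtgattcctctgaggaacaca
Past the 3′ end of *Cyp4a10*, start of a KO LAD, chr4:115207034-115207093: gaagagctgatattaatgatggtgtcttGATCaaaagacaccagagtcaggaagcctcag
*Cyp4a31* intron 3, start of a KO LAD, chr4:115240833-115240892: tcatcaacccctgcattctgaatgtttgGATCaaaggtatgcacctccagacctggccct
*Cyp4a31* exon 7, start of a WT LAD, chr4:115243594-115243653: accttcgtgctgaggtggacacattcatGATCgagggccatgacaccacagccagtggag
*Cyp4b1* intron 4, end of a WT LAD, chr4:115310918-115310977: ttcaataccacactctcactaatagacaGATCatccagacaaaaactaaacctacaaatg

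The 7 genes lie within 348.7 kb of chromosome 4, from 114971651 to 115320322, and took 4 different positions. *Cyp4a12b* and *Cyp4a10* were called PI (peripheral in WT and interior in KO), because 1 base or more of their spans fell in a WT-only DR. *Cyp4b1* was called IP (interior in WT and peripheral in KO) from its overlap with a KO-only DR. *Cyp4a12a*, *Cyp4a31* and *Cyp4a32* overlapped a LAD in both lists and no DR, and were PP. *Cyp4a14* overlapped no LAD in either list and was II. Over all protein-coding genes the PI share was 5.43%, the IP share 17.1%, the PP share 17.9% and the II share 56.6%, and 2.96% overlapped DRs of both kinds (ambiguous, AMB). Among the 7 genes these classes stood at 28.6% PI, 14.3% IP, 42.9% PP and 14.3% II, where 1 gene makes up 14.3%. Along the chromosome, 5 of the 6 neighboring pairs of these genes differed in class, and the only pair that shared one was *Cyp4a31* and *Cyp4a32*. Over all neighboring protein-coding genes, 30.5% of pairs differed. Under the other rules for the class, between 3 and 6 of the 6 pairs differed, and the 3 came with 50% or more of the span in a DR, with LADs joined across up to 50 kb and with the 100 kb windows. The share over all genes was not computed under those rules.

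**Figure D1:**
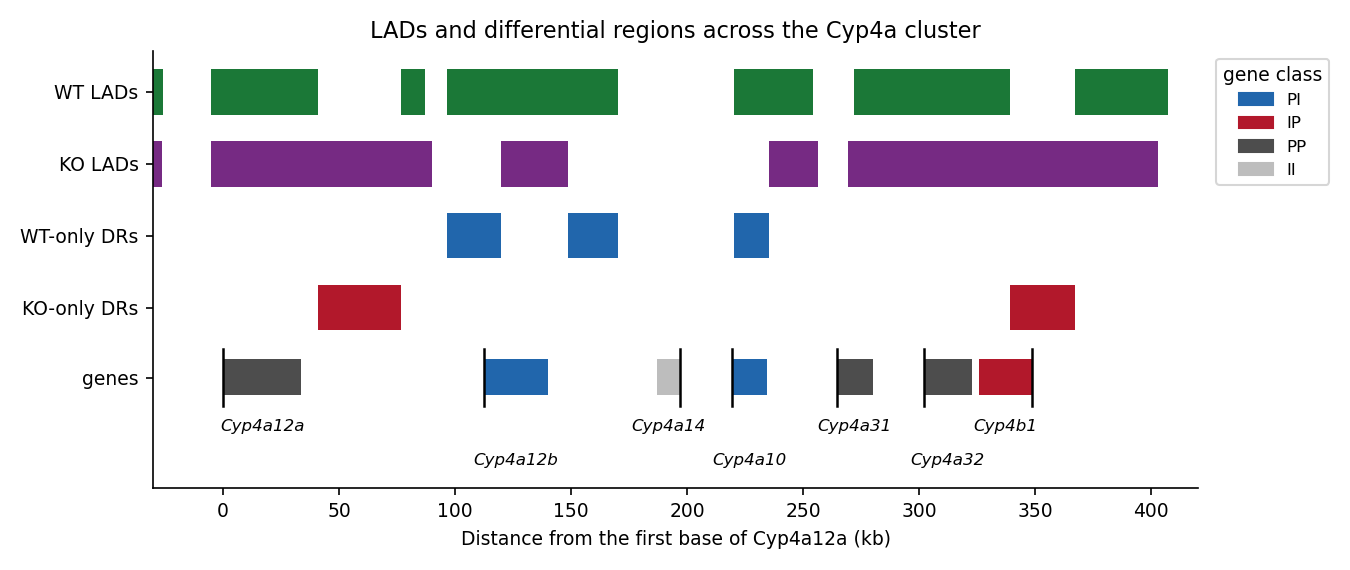
Map of the cluster, with distance from the first base of *Cyp4a12a* in kb on the horizontal axis and rows for WT LADs, KO LADs, WT-only DRs, KO-only DRs and genes, each gene colored by class with a black line at its transcription start. *Cyp4a14* sits in a gap of both lists, which is 50.2 kb wide in WT and 86.7 kb in KO and takes in *Cyp4a10* in the KO.

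The total in LADs was similar in the 2 lists, and most of it, but not all, lay at the same bases in both. From the first to the last base of the 7 genes, WT LADs covered 64.7% and KO LADs 62.9%, with 47.6% in both, 17.1% in WT only and 15.4% in KO only. Over the genome, 55.4% was in WT LADs, 56.1% in KO LADs and 48.3% in both. Summed over the 7 gene spans (145.5 kb), LADs held 80.9% in WT and 74.5% in KO. The order turned when only LADs of at least 50 kb were kept, with 47.9% in WT and 60.6% in KO. The interval was crossed by 5 WT LADs and 4 KO LADs, whereas the whole lists hold 8107 WT LADs and 16076 KO LADs. None of the 9 WT borders within it was shared with the KO list. The nearest KO border was a median of 13.2 kb away, against a median of 13.1 kb over all WT borders, of which 2.58% had an identical KO border. The 6 KO borders within the interval were a median of 9.10 kb from a WT border, against 54.5 kb over all KO borders.

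The PPARα targets *Cyp4a14* and *Cyp4a10* lie next to each other on opposite strands, with 22.1 kb between them that was in no LAD of either list. *Cyp4a14* (115158805 to 115168747, minus strand, 12 exons) had no base in a LAD of either list (0% of its span in WT and 0% in KO), nor had any of its 12 exons. Its transcription start was 23.3 kb from a WT LAD and 38.3 kb from a KO LAD. On its other side, the WT LAD ended 17.0 kb from the gene and the KO LAD 38.4 kb from it. *Cyp4a14* therefore counted as interior in both genotypes, in a gap that was 1.73 times as wide in the KO. By the 100 kb centered on the gene, which reaches into the WT-only DRs on both sides, it was PI. The gap was wider by 36.5 kb in all, 21.4 kb of it on the *Cyp4a12b* side and 15.1 kb on the *Cyp4a10* side.

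*Cyp4a10* (115190869 to 115206254, plus strand, 13 exons) showed the largest drop of the 7 genes. Its share in LADs was 92.6% in WT and 0% in KO. The WT LAD began in intron 1, 1.13 kb past the transcription start, so exon 1 and the start itself were outside LADs in both lists, and the other 12 exons were in the WT LAD only. In the KO the nearest LAD began 0.810 kb past the 3′ end of the gene. The region between these borders is the WT-only DR of 15.1 kb from 115192001 to 115207064, with 49 GATC sites, and it ran over little else than the body of *Cyp4a10*. Of the 1215 PI genes, 24.03% had at least as large a share of their span in WT-only DRs, and the median was 34.9%. This DR is under 20 kb, and with DRs of at least 20 kb the gene was II, as it was by its start alone and with LADs of at least 50 kb, since the WT LAD over it is 33.8 kb long.

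*Cyp4a12a* and *Cyp4a12b* are near copies, with coding sequences of 1527 bases that were 98.5% identical, and they are separated by 78.8 kb. *Cyp4a12a* (114971651 to 115005420, plus strand) lay wholly in a LAD in both lists, with 100% of its span in WT and 100% in KO and all 12 exons in both. The LAD over it began at the same GATC site in both lists, 5.02 kb before the transcription start. *Cyp4a12a* was IP when LADs had to reach 50 kb, and in the 100 kb window around it. The LAD was 45.8 kb long in WT and 95.1 kb long in KO, and the difference came from its far side, where the KO LAD ran on across a KO-only DR of 36.1 kb, a WT LAD of 10.03 kb and a further 3.15 kb in the KO list only.

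*Cyp4a12b* (115084229 to 115111639, plus strand) was wholly in a WT LAD of 73.6 kb, and 74.1% of its span was in a KO LAD of 29.03 kb. The KO LAD began in intron 4, an intron of 17.8 kb, so exons 1 to 4 were in the WT LAD only and exons 5 to 12 were in LADs of both lists. The transcription start was 16 kb inside the WT LAD, and in the KO it was 7.11 kb outside the nearest LAD. The WT LAD was shortened on both sides in the KO, by a DR of 23.1 kb that took in the start of *Cyp4a12b* and by a DR of 21.4 kb past its 3′ end that held no member of the cluster. The lost share of the span was 25.9%, and 58.1% of the PI genes had as much or more. The gene was PP when 50% or more of the span had to lie in a DR and with LADs joined across gaps of up to 50 kb, and AMB by the 100 kb centered on it. The 2 copies thus differed in the lists at their 5′ ends, although both 3′ parts were in LADs of both genotypes. With 1 library pair this difference was not tested.

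**Figure D2:**
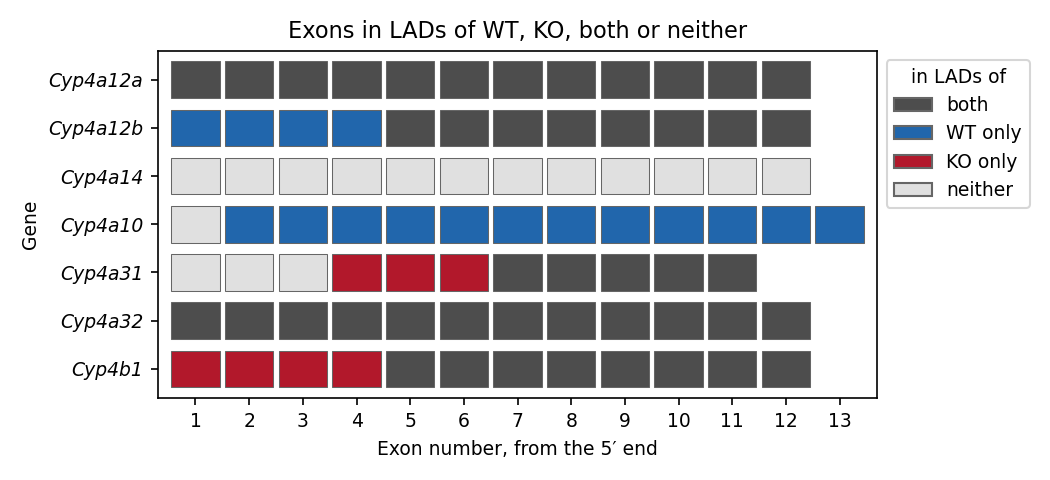
Each square is an exon, numbered from the 5′ end on the horizontal axis, with 1 row per gene, colored by whether it overlaps a LAD of both lists, of WT only, of KO only or of neither. The WT-only squares are exons 1 to 4 of *Cyp4a12b* and 2 to 13 of *Cyp4a10*, and the KO-only squares are exons 4 to 6 of *Cyp4a31* and 1 to 4 of *Cyp4b1*.

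*Cyp4a31* and *Cyp4a32* are close relatives of *Cyp4a10*, with coding sequences 96.6% and 97.2% identical to it, and both were PP. *Cyp4a32* (115273574 to 115294207, plus strand, 12 exons) had 100% of its span in LADs in WT and 100% in KO. Its start was 29.9 kb from the nearest border in WT and 32.7 kb in KO, the deepest of the 3 starts that lay in a WT LAD. In the 100 kb window around it, *Cyp4a32* was IP. *Cyp4a31* (115236254 to 115251618, plus strand, 11 exons in the transcript used) lay across a border in both lists, with 52.0% of its span in the WT LAD and 70.0% in the KO LAD. The KO LAD began in intron 3 and the WT LAD in exon 7, a shift of 2.76 kb toward the start. This shift is shorter than the 10 kb asked of a DR, so the gene was PP although exons 4 to 6 were in a KO LAD only. The transcription start was outside LADs in both lists, 7.37 kb from the WT LAD and 4.61 kb from the KO LAD. *Cyp4a31* became IP when LAD differences of any length were counted, PI by the 100 kb centered on the gene and II by its start.

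*Cyp4b1* (115297303 to 115320322, minus strand, 12 exons) was the IP gene of the cluster by the overlap of spans with DRs. Its share in LADs was 59.3% in WT and 100% in KO, and 40.7% of its span was in a KO-only DR, against a median of 42.8% over the 3826 IP genes. It was PP when 50% or more of the span had to lie in a DR and with LADs joined across gaps of up to 50 kb. The WT LAD ended in intron 4. Exons 5 to 12 were in LADs of both lists, and exons 1 to 4 and the transcription start were in the KO LAD only. The start was 9.37 kb outside the nearest WT LAD and 54.1 kb inside the KO LAD. The KO-only DR of 27.8 kb from 115310949 to 115338717 filled the gap between 2 WT LADs, so that the KO list has 1 LAD of 133.6 kb over *Cyp4a31*, *Cyp4a32* and *Cyp4b1*. Because *Cyp4b1* is on the minus strand, its 5′ part is the side that faces away from the other 6 genes.

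**Figure D3:**
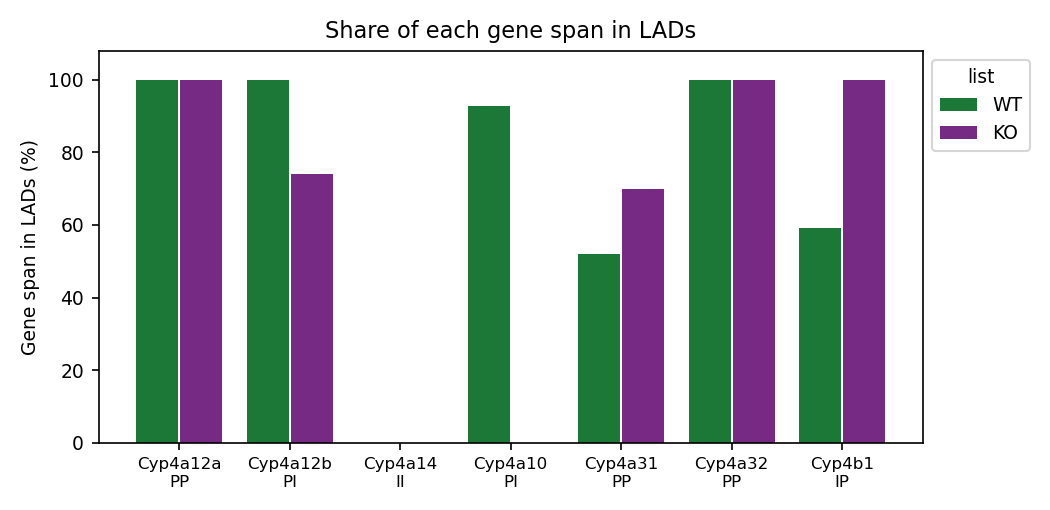
Bars give the percent of each gene span in LADs, with WT and KO side by side and the class under each gene. *Cyp4a10* goes from 92.6% to 0%, *Cyp4b1* from 59.3% to 100%, and *Cyp4a14* has 0% in both lists.

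The transcription starts were then compared with the LADs. In the WT list 3 of the 7 starts were in a LAD (*Cyp4a12a*, *Cyp4a12b* and *Cyp4a32*), against 22.7% of all protein-coding genes. In the KO list 3 starts were in a LAD as well (*Cyp4a12a*, *Cyp4a32* and *Cyp4b1*), against 32.8%. The starts of 3 genes (*Cyp4a14*, *Cyp4a10* and *Cyp4a31*) were outside LADs in both lists. *Cyp4a12b* was the only gene of the cluster whose start left LADs, which 2.62% of all protein-coding genes did. *Cyp4b1* was the only one whose start entered a LAD, which 12.7% did. The start of *Cyp4a10* moved from 1.13 to 16.2 kb from the nearest LAD.

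**Figure D4:**
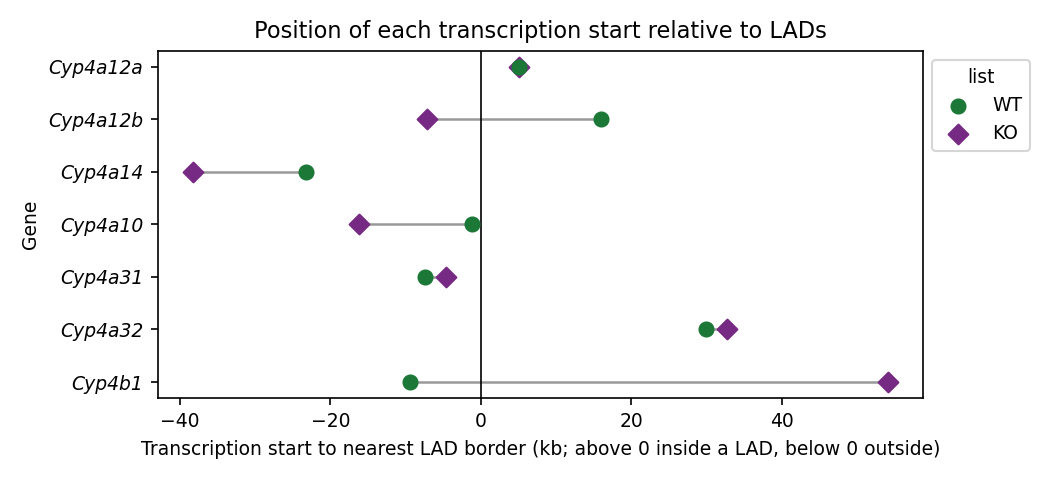
Distance in kb from each transcription start to the nearest LAD border, above 0 inside a LAD and below 0 outside, with circles for WT and diamonds for KO. *Cyp4a12b* crosses the line from inside to outside and *Cyp4b1* from outside to inside, and *Cyp4a12a* has the same value in both lists.

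The exons gave the same picture at finer scale. Of the 84 exons of the 7 genes, 45 (53.6%) were in LADs of both lists, 16 (19.05%) in WT only, 7 (8.33%) in KO only and 16 (19.05%) in neither. Over all protein-coding genes, 15.5% of exons overlapped LADs of both lists, 3.1% of the WT list alone, 9.18% of the KO list alone and 72.2% none. With LADs of at least 50 kb there were 12 WT-only and 19 KO-only exons, and joining LADs across gaps of up to 20 or 50 kb left 4 or 0 KO-only exons. Of the 16 WT-only exons, 12 belonged to *Cyp4a10* and 4 to *Cyp4a12b*. Exons of 1 gene share a LAD border and are not independent of each other.

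The start of *Cyp4b1* lay in the KO-only DR, and its promoter is shown for that reason, from 250 bases before to 50 bases after the RefSeq start, on the minus strand of GRCm38.p6 (coordinates of that build only), with the GATC site in capitals.
*Cyp4b1* promoter, chr4:115647672-115647971: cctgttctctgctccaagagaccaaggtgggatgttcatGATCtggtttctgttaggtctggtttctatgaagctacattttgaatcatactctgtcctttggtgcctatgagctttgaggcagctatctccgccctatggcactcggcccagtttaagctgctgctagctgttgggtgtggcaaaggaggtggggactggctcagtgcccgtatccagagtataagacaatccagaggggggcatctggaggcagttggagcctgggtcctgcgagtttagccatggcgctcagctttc
Of the 7 genes, 2 (*Cyp4a32* and *Cyp4b1*) had a promoter in the RefSeq table used. The direct repeat bound by PPAR with its partner RXR, 2 copies of AGGTCA with 1 base of any kind between them, was searched on both strands with up to 3 mismatches. It was found in the promoter of *Cyp4a32* and not in that of *Cyp4b1*, and 24.6% of 32851 promoters of the same length held it. The STAT5 letters TTCNNNGAA were found in *Cyp4b1* and not in *Cyp4a32*, and in 8.30% of promoters. GATC was found once in each of these promoters and in 48.0% of all promoters. In *Cyp4a32* the GATC site shares bases with the match to the repeat.

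Neighboring genes of this cluster share sequence, and a read from a stretch that occurs more than once cannot be placed with certainty. The 50 bases that run from a GATC site into each of the fragments beside it were looked up in the whole assembly. Over the 7 spans 59.8% of 956 such fragment ends occurred once, against 84.1% over the genome. The share was 41.1% in *Cyp4a12a*, 39.4% in *Cyp4a12b* and 50% in *Cyp4a32*. It was higher in *Cyp4b1* with 79.9%, *Cyp4a31* with 82.6%, *Cyp4a10* with 87.5% and *Cyp4a14* with 100%. The WT-only DR at *Cyp4a10* held 86.7% unique ends, the one at the start of *Cyp4a12b* 70.3% and the KO-only DR at *Cyp4b1* 86.8%. The KO-only DR between *Cyp4a12a* and *Cyp4a12b* was lowest with 28.8%, and the sequences beside its borders occurred 6 and 1998 times at one end of it and 232 and 541 times at the other. The KO-only DR at *Cyp4b1* also had such a border, with 17 and 8446 copies on its far side and 1 copy of each in intron 4. The borders of the DRs at *Cyp4a10* and at the start of *Cyp4a12b* had 1 or 2 copies. The part of these repeats in the LAD borders was not tested. The cluster held 3.14 GATC sites per kb against 2.42 over the genome, and 3.85 fragment ends per kb that occurred once against 4.06.

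The surroundings of the cluster differed on its 2 sides. In the 200 kb before *Cyp4a12a*, 76.2% was in WT LADs and 58.8% in KO LADs, with no base in KO LADs only. *Cyp4x1*, a related P450 gene there, was PI, with 30.9% of its span and its start in a WT LAD and 0% in KO. In the 200 kb after *Cyp4b1*, LADs held 20.1% in WT and 27.1% in KO. The last of them ended 58.7 kb past *Cyp4b1* in WT and 54.1 kb past it in KO. The 5 protein-coding genes beyond (*4732418C07Rik*, *4930544O15Rik*, *Atpaf1*, *Mob3c* and *Mknk1*) had 0% of their spans in either list and were II.

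The position of genes that act before and after the Cyp4a enzymes was compared, in lists chosen with earlier results of these data known. Of the 60 genes listed, all were in the annotation, and 52 of them were II, 3 PI and 5 IP. Beside the shares of 5.43% PI, 17.1% IP and 56.6% II over all protein-coding genes, the PI genes among them were no more frequent than elsewhere, and the ones named below are given as single values. Of 16 genes of peroxisomal fatty acid oxidation, 13 were II. *Abcd2*, a peroxisomal fatty acid importer, was PI with 44.1% of its span in LADs in WT and 0% in KO. *Hsd17b4*, a bifunctional enzyme of the pathway, was PI with only 3.81% in WT and 0% in KO. *Crot*, a carnitine acyltransferase, was IP with 0% in WT and 22.7% in KO. Of 14 genes of mitochondrial oxidation and ketogenesis, 13 were II and *Decr1*, an enzyme for unsaturated fatty acids, was IP with 8.44% in WT and 69.0% in KO. Of 13 genes of fatty acid uptake, binding and thioesterases and other PPARα targets, 11 were II. *Cd36*, a fatty acid translocase, was IP with 32.8% in WT and 80.3% in KO, and *Vnn1*, a pantetheinase, was IP with 0% in WT and 57.9% in KO.

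Of the 9 regulators listed, *Ppara*, *Rxra* and 5 others were II, against 56.6% of all protein-coding genes, of which 5.43% were PI and 17.1% IP. *Ppargc1a*, a coactivator of PPARα, was PI, with 62.0% of the gene in LADs in WT and 28.1% in KO. *Ghr*, the growth hormone receptor gene, was IP with 0% in WT and 4.50% in KO. The 8 genes listed for the steps after omega-hydroxylation, a list that also holds an epoxide hydrolase gene, were all II. Of the 11 other Cyp4 genes found, 9 were II, *Cyp4x1* was PI and *Cyp4f18* was IP with 0% in WT and 46.6% in KO.

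The cluster was set beside other P450 clusters. Of 15 *Cyp2c* genes of chromosome 19, 12 were PI, 1 IP, 1 PP and 1 II. Of 13 genes of the *Cyp2a* and *Cyp2b* cluster of chromosome 7, 5 were PI and 8 II. Of 9 *Cyp3a* genes of chromosome 5, 8 were PI and 1 II. Of 8 *Cyp2j* genes, which lie on chromosome 4 as well and were added after their values were seen, 6 were PP, 1 PI and 1 IP. In the *Cyp4a* cluster 2 of 7 were PI and 3 were PP. The PP class thus made up 3 of 7 genes here and 6 of 8 in the *Cyp2j* cluster, against 17.9% of all protein-coding genes, and 1 of 15, 0 of 13 and 0 of 9 in the other clusters. The median share of the gene span in LADs went from 92.6% in WT to 74.1% in KO in the *Cyp4a* cluster, from 70.8% to 0% in the *Cyp2c* cluster and from 100% to 0% in the *Cyp3a* cluster. It was 0% in both lists in the *Cyp2a* and *Cyp2b* cluster and 100% in both in the *Cyp2j* cluster. Over all 98 P450 genes, 30.6% were PI and 9.18% IP. Neighboring genes differed in class in 5 of 6 pairs of the *Cyp4a* cluster, 6 of 12 of the *Cyp2a* and *Cyp2b* cluster, 3 of 7 of the *Cyp2j* cluster, 5 of 14 of the *Cyp2c* cluster and 1 of 8 of the *Cyp3a* cluster. Genes of a cluster share LADs, and with 1 library pair per genotype the differences between clusters were not tested.

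**Figure D5:**
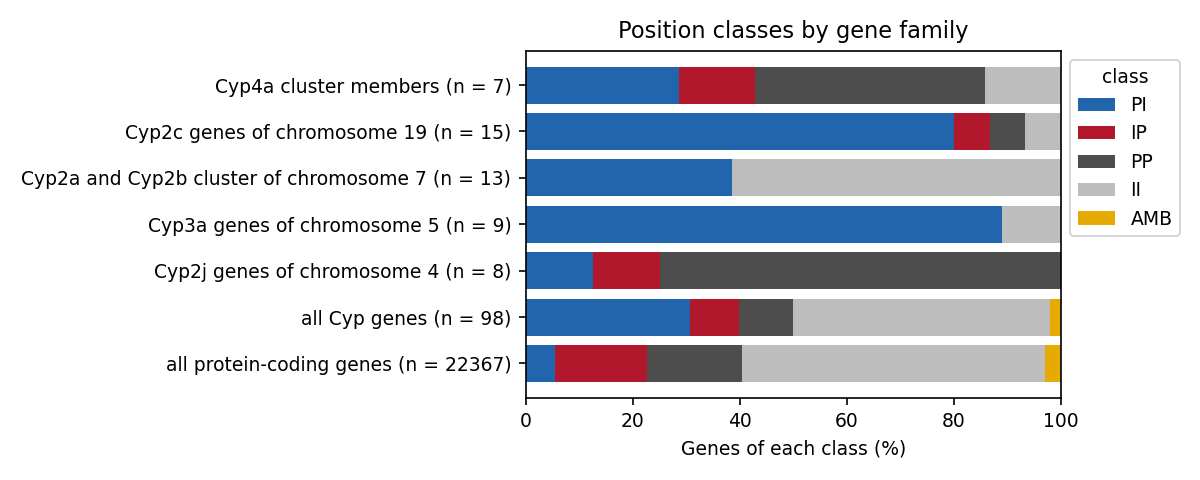
Percent of genes in each position class, with 1 bar per gene family and the number of genes beside its name. The *Cyp4a* bar holds 42.9% PP and the *Cyp2j* bar 75% PP, the *Cyp2c* bar 80% PI and the *Cyp3a* bar 88.9% PI, against 5.43% PI over all protein-coding genes.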

How the data were processed

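DamID libraries were mapped by the authors to mm9, the signal over Dam alone was taken as a log2 ratio per *DpnI* fragment, and LADs were called by circular binary segmentation in DNAcopy. The submitters' processing notes also name BWA and limma, with no role given. The deposited files hold interval positions in bases, read here as BED, without a signal. Subtraction of the LAD lists, with a 10 kb minimum, gave all 7787 WT-only and 8208 KO-only DRs.

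Spans, starts and exons (of the coding transcript with the longest summed exons) came from the GENCODE annotation of NCBIM37, the same assembly as mm9. Steps were run in Python 3.11.15 with numpy 2.4.6, pysam 0.24.0, samtools 1.23.1, Biopython 1.88 (global alignment) and matplotlib 3.10.9. The interval steps and the motif matching, but not the other steps, were tested on simulated data (2200 cases, 0 errors). Genes were named by a rule: the 7 members, every protein-coding or Cyp4 gene within 200 kb, and listed pathway genes called PI or IP. *Ppara* and *Rxra* were named outside it. The members and lists were chosen with earlier results of these data known. All protein-coding genes served as background. No test between genotypes was possible. Cyp4a29 and Cyp4a30b, listed by those symbols, were found only as pseudogenes. The alternatives changed the overlap asked of a gene, the minimum lengths, the joining of LADs, the exons and the length of fragment end.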

Additional observations from a re-analysis of the deposited data

How the results depend on the processing

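Of the 48 alternative values computed for 9 quantities, 32 stayed within 1.5 times the reported value and 16 did not. When 50% or more of the span had to lie in a DR, there remained 1 PI and 0 IP genes, and calling by the transcription start left 1 PI gene. The 100 kb centered on each gene gave 3 IP genes and 3 PI genes, and changed 5 of the 7 classes: *Cyp4a12a* and *Cyp4a32* to IP, *Cyp4a14* and *Cyp4a31* to PI and *Cyp4a12b* to AMB. LAD differences of any length gave 2 IP genes, and DRs of at least 20 kb left 1 PI gene. With LADs of at least 50 kb, there were 1 PI and 2 IP genes, 47.9% of the spans in WT LADs against 60.6% in KO LADs, which turned their order, and 19 exons in KO LADs only against 12 in WT LADs only. LADs joined across gaps of up to 20 kb left 4 exons in KO LADs only. Joining across up to 50 kb left 1 PI and 0 IP genes, 5 starts in WT LADs, 5 in KO LADs and 0 exons in KO LADs only. Of 10 rules for the class, *Cyp4a14* and *Cyp4a32* kept theirs under 9, *Cyp4a12a* and *Cyp4b1* under 8, and *Cyp4a10*, *Cyp4a12b* and *Cyp4a31* under 7. The share of unique fragment ends was 51.2% at 36 bases and 77.8% at 100 bases. No paired analysis was possible because each group has 1 library. The shortest LADs listed are 10 kb long, shorter contacts are not in the lists, and the depth behind a border is unknown here.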

Other observations

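The annotated pseudogenes of the family also took different positions. *Cyp4a30b-ps* (115125209 to 115143666), between *Cyp4a12b* and *Cyp4a14*, was PI, with 90.0% of its span in LADs in WT and 0% in KO. *Cyp4a28-ps*, next to *Cyp4x1*, was PI with 100% in WT and 43.6% in KO, and *Cyp4a29-ps* was PP with 100% in both. *Cyp4x1* and *Cyp4a28-ps* overlapped the same WT-only DR, so their PI calls are not separate. The PI share was 5.43% over all protein-coding genes, and it was not computed for pseudogenes.

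*Cyp4a14* shared 75.4% to 76.1% of its coding bases with the other Cyp4a genes, and *Cyp4b1* shared 59.96% to 61.8% with them. Close relatives had the same class in some pairs and not in others. The 98.5% identical *Cyp4a12a* and *Cyp4a12b* were PP and PI, *Cyp4a31* and *Cyp4a32*, 96.0% identical, were both PP, and *Cyp4a10*, their close relative, was PI. By overlap of spans with DRs, the most divergent genes, *Cyp4a14* and *Cyp4b1*, were the only II and the only IP gene of the cluster. Under other rules this did not hold. *Cyp4a10* and *Cyp4a31* were also II by their starts, and *Cyp4a12a* was also IP with LADs of at least 50 kb. By the 100 kb centered on the gene, *Cyp4a14* was PI.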
